A study of Drosophila melanogaster with 9 samples.

Results

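Wild-type females and wild-type males of the fruit fly Drosophila melanogaster were compared as first instar larvae, the stage that hatches from the egg, by RNA-seq of polyadenylated RNA. The comparison used 6 of the 9 libraries of the series, chosen by their titles: 3 of wild-type females and 3 of wild-type males. The other 3 libraries came from males carrying roX1[ex6]roX2[9-4], titled as a double knockout of roX1 and roX2 and called roX-KO males below. Their counts, not scaled to library size, are set beside some genes without a test. They enter only the alternative fit of all 9 libraries. The labels give the 2 wild-type groups no allele, transgene or treatment, and name neither the stock, the hours after hatching nor the number of larvae in a library. The extraction text of the female samples names male larvae, as it does for the other samples, so that the sex of the libraries rests on their titles and on the sex-linked genes described first.

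In flies the number of X chromosomes sets the sex. In females the RNA-binding protein Sxl is made, which keeps its own gene productive through splicing, directs the female splicing of tra and prevents the translation of msl-2. Males make no working Sxl, so that the MSL complex assembles with the noncoding RNAs roX1 and roX2, spreads along their only X and increases its output. The gonads of a larva are small organs in which germ cells are surrounded by somatic cells, and the larval testis is the larger of the 2 kinds of gonad.

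Counts in genes came to between 17743217 and 18020359 in the 6 libraries, and at least 49.2% of the reads fell in genes in each. Over the 11104 genes tested, log2 CPM (counts scaled to the library size) of the males correlated with each other at Pearson's r of 0.991 to 0.996, and females 1 and 2 at 0.996. Female 3 stood apart from females 1 and 2, at 0.953 and 0.956, about as far as those females did from the males (0.946 to 0.954). It correlated with male 2 at 0.940 against 0.922 and 0.921 with males 1 and 3. Its TMM scaling factor was 0.879, against 1.09 and 1.07 in females 1 and 2 and 0.982 to 1.01 in the males, so that its counts stand for more CPM than the same counts elsewhere. Counts of called genes are therefore given with and without female 3 for the gene groups that it moves. Nothing in the labels tells whether the replicates are separate cultures, so the p-values cover the spread between these libraries, which may be technical. No sequencing batch or stock is given either. The females are numbered in the series as a block apart from both male groups. A batch, a difference of stock and the sex of the larvae therefore cannot be told apart.

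Females had higher RNA of 1197 genes and lower RNA of 1244 genes than males (10.8% and 11.2% of those tested, edgeR's quasi-likelihood test at a Benjamini-Hochberg adjusted p under 0.05). Of these, 480 were higher and 605 lower by at least 2-fold, and the median log2 fold over all genes tested was 0.04. The groups did not overlap in 4632 genes (41.7%). Without female 3 the test called 2927 genes higher and 2924 lower (26.1% each of 11222), among them all of the 1197 and all of the 1244. The counts of a gene group without female 3, given below, stand beside these larger shares. The gene lists were chosen with earlier results of these data known, so that their counts are descriptions and no test. Without 1 of the other libraries it called fewer: 452 higher and 616 lower without male 1, 562 and 694 without male 2, 430 and 638 without male 3, 770 and 851 without female 1, and 686 and 763 without female 2. Of 150 called genes picked by rule or named below, 96 kept their call whichever library was left out. A gene whose call was lost is marked where its p is given.

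The 3 markers of sex followed the titles in all 6 libraries. For roX1 (FBgn0019661, dm6 chrX:3857230-3862697, minus strand), one of the RNAs of the MSL complex, the males had 5571, 4964 and 6002 counts and the females 440, 403 and 314. The groups lay far apart, 14.7-fold or -3.88 ± 0.14 on the log2 scale (SE, 3 libraries per group, edgeR adjusted p = 4.1e-05), and yet the females kept more counts of roX1 than the roX-KO males, at 63, 52 and 68. For roX2 (FBgn0019660, dm6 chrX:11579065-11580432, plus strand), its shorter partner, the males had 150, 181 and 162 counts and the females 3, 4 and 6. This was the larger difference of the pair, at a log2 fold of -5.24 ± 0.28 (edgeR adjusted p = 0.00019). For Sxl (FBgn0264270, dm6 chrX:7074550-7098053, minus strand) the males had 1014, 789 and 1031 counts and the females 2534, 2172 and 1406. Every female lay above every male, with female 3 the nearest to them, and the log2 fold was 1.05 ± 0.19 (edgeR adjusted p = 0.0093). A count over the whole gene does not separate the female splice form of Sxl from the male one. For FDY (FBgn0265047, dm6 chrY:3022289-3024024, plus strand), a Y-linked gene that arose as a copy of vig2, the males had 104, 105 and 108 counts and the females 4, 5 and 4, a log2 fold of -4.61 ± 0.21 (edgeR adjusted p = 9.9e-05). Reads shared with vig2 could be counted for FDY, so the few female counts are uncertain as expression of the Y.

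Among the proteins of the MSL complex, RNA of msl-2 and mof was lower in females, while that of msl-1, msl-3 and mle did not pass the test. Of the 7 genes of the complex and its RNAs, 4 were lower and none higher, with a median log2 fold of -0.95, and 5 were lower without female 3 and 2 to 4 without another library. For msl-2, the subunit that males make and females do not, the males had 593, 512 and 622 counts and the females 254, 198 and 64. Female 3 was the lowest by far, and the log2 fold was -1.83 ± 0.38 (edgeR adjusted p = 0.017). The call was lost without male 1, 2 or 3, where the adjusted p reached 0.0656, and it held without any one female. For mof, the acetyltransferase of the complex, the males had 461, 292 and 289 counts and the females 216, 202 and 138, a log2 fold of -0.95 ± 0.22 (edgeR adjusted p = 0.022, up to 0.0639 without male 1 or female 2). For msl-1, the scaffold, the males had 650, 502 and 645 counts and the females 494, 506 and 266. Male 2 lay close to females 1 and 2, and the log2 fold was -0.57 ± 0.21 (edgeR adjusted p = 0.10). The helicase gene mle and the chromodomain gene msl-3 had log2 folds of 0.07 ± 0.17 and -0.01 ± 0.13 (edgeR adjusted p = 0.81 and 0.97). Of 8 cofactors of dosage compensation, 1 was called with all 6 libraries, and 1 was higher and 3 lower without female 3. The call with all 6 was Top2, a topoisomerase also needed in dividing cells, at a log2 fold of -1.22 ± 0.14 (edgeR adjusted p = 0.0016).

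Of 22 tested genes of sex determination, which include Sxl and genes that act above it, 2 were higher, Sxl and tra, and 1 was lower, dsx. Without female 3, 6 were higher and 1 lower. The median log2 fold of 0.01 turned to -0.003 with DESeq2's size factors and ranged from -0.10 to 0.16 as libraries were left out. For tra, whose splicing Sxl directs, the males had 45, 38 and 37 counts and the females 58, 74 and 60, a log2 fold of 0.64 ± 0.18 (edgeR adjusted p = 0.047). That call was lost without any library except female 3 (adjusted p up to 0.197), with DESeq2's size factors and with DESeq2 itself. For dsx, the transcription factor gene spliced into a male and a female form at the end of the pathway, the males had 41, 44 and 51 counts and the females 28, 24 and 17. The groups did not overlap, and the log2 fold was -1.02 ± 0.21 (edgeR adjusted p = 0.014, up to 0.0693 without male 2, male 3 or female 2). The log2 fold of tra2, the partner of tra, was -0.21 ± 0.15, and that of fru, spliced by both, was -0.16 ± 0.23 (edgeR adjusted p = 0.38 and 0.69). Among genes of the m6A reading and writing machinery that assists Sxl splicing, Ythdc1 had 1100, 1046 and 1082 counts in males and 1562, 1688 and 1103 in females (log2 fold 0.38 ± 0.13, edgeR adjusted p = 0.082). The folds of Mettl3 and Mettl14 were -0.15 ± 0.16 and -0.11 ± 0.21 (edgeR adjusted p = 0.56 and 0.76).

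Germline genes were lower in the females. Of 32 tested genes of the germline and of the piRNA pathway, which silences transposons in germ cells, 22 were lower and none higher, against 11.2% lower among all genes tested. Their median log2 fold was -1.29, and 23 were lower and 2 higher without female 3, while 15 to 18 were lower without any one of the other libraries. In bulk RNA, fewer cells of a type and less RNA per cell cannot be told apart. For zpg, the innexin that forms gap junctions between germ cells and their somatic neighbours, the males had 56, 58 and 68 counts and the females 3, 1 and 1, a log2 fold of -5.13 ± 0.34 (edgeR adjusted p = 0.00029). For vas, the germ cell helicase, the males had 139, 156 and 134 counts and the females 19, 14 and 11. The groups lay 9.99-fold apart at a log2 fold of -3.32 ± 0.20 (edgeR adjusted p = 0.0002). Another gene on the same strand covers 24.6% of the exons of vas.

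RNA of the 3 genes for the Argonaute proteins that carry piRNAs was lower in each case, though by different amounts. For aub the males had 159, 121 and 163 counts and the females 21, 26 and 9, a log2 fold of -3.03 ± 0.29 (edgeR adjusted p = 0.00103). For AGO3 the males had 117, 84 and 88 counts and the females 42, 32 and 26, a log2 fold of -1.57 ± 0.21 (edgeR adjusted p = 0.0030). For piwi, which somatic cells of the gonad also use, the males had 182, 173 and 232 counts and the females 84, 78 and 87, a log2 fold of -1.26 ± 0.19 (edgeR adjusted p = 0.0054). None of these groups overlapped. The double-stranded RNA-binding gene blanks (-4.68), the piRNA genes qin (-2.65), mael (-2.45) and krimp (-2.14), and nanos (-1.66), a translational repressor that maintains germ cells, were lower as well. For nanos and mael, 15.9% and 11.5% of the exons lie under a gene of the opposite strand, and the sources used here do not say whether the counting used strand. Other genes of the list, such as tud, Gasz, gcl and ovo, were not called, with log2 folds of -0.18, -0.16, 0.28 and 0.21. In the roX-KO males zpg had 57, 54 and 48 counts and vas 129, 131 and 139, close to the wild-type males.

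**Figure D1:**
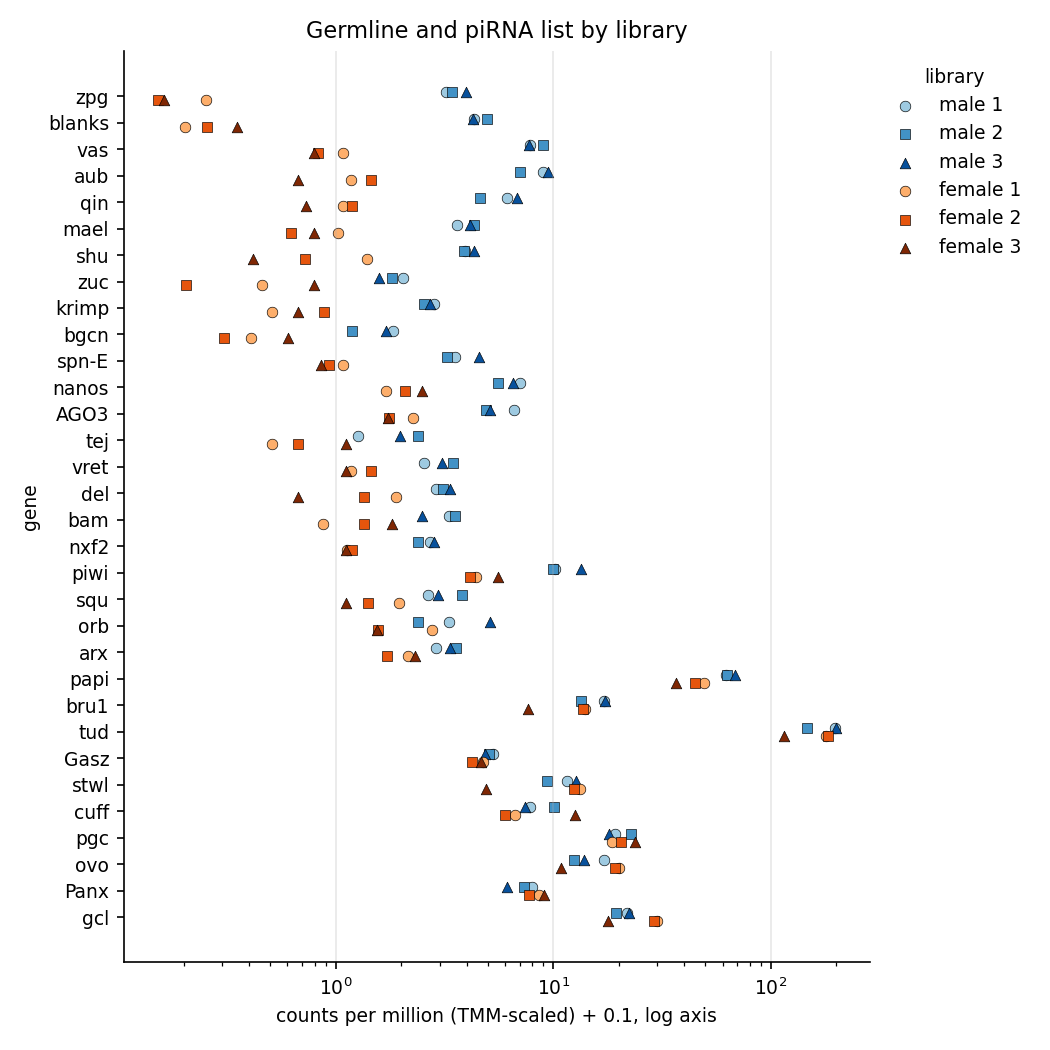
Each row is a tested gene of the germline and piRNA list, ordered by log2 fold, and each point is a library at its TMM-scaled CPM plus 0.1 on a log axis (blue for males, orange and brown for females). From zpg down to papi the female points lie left of the male points in all but orb, and among the last 9 rows the groups overlap or nearly touch.

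Several genes with large falls are paralogs of housekeeping genes; they were grouped here after their values were seen. For RpL22-like (FBgn0034837, dm6 chr2R:23246610-23247893, minus strand), a paralog of a ribosomal protein known from the germline, the males had 359, 370 and 349 counts and the females 4, 3 and 1. This was the largest fall among non-overlapping genes whose mean log2 CPM reached 1, at a log2 fold of -7.05 ± 0.26 (edgeR adjusted p = 4.1e-05). The roX-KO males had 162, 135 and 170 counts, between the 2 wild-type groups. For gNacalpha, a germline form of a subunit of the nascent polypeptide-associated complex, the males had 289, 303 and 279 counts and the females 8, 7 and 7, a log2 fold of -5.32 ± 0.18 (edgeR adjusted p = 3.3e-05). For RpS19b the males had 89, 92 and 82 counts and the females 2, 3 and 2, a log2 fold of -5.20 ± 0.24 (edgeR adjusted p = 9.9e-05). The ribosomal paralogs RpS10a (-3.69) and RpS5b (-1.44) also fell, and the ATP synthase gene ATPsynepsilonL had a log2 fold of -3.62.

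Others were named after their values were seen. The translation factor gene eIF3f2 had 20, 29 and 19 counts in males and none in any female, and was at least 23.3-fold lower when 3 counts over all females are taken as the floor. For eIF4E3, a cap-binding protein gene, the males had 40, 47 and 45 counts and the females 2, 0 and 1, a ratio of 45.2 with a 95% counting interval of 15.1 to 222. SkpC had 39, 44 and 40 counts in males and 1 count in each female, a ratio of 42.2 (14.1 to 207). SkpE had 33, 43 and 38 counts in males and 0, 0 and 1 in females, a ratio of 117 (20.6 to 4670). By the naming rule, RpL37-2 had 26, 39 and 29 counts in males and 0, 3 and 0 in females, a ratio of 32.2 (10.7 to 159). These intervals cover counting error only. On the X, Phf7, a histone reader of the male germline, had 147, 128 and 139 counts in males and 30, 26 and 14 in females, a log2 fold of -2.61 ± 0.22 (edgeR adjusted p = 0.00062). The gene fs(1)Yb, which serves the piRNA pathway in somatic cells of the gonad, had 30, 21 and 24 counts in males and 4, 1 and 1 in females, a log2 fold of -3.60 ± 0.44 (edgeR adjusted p = 0.0023).

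Genes of later gametogenesis were mostly too low to test. Of 29 genes of spermatocytes and sperm, 7 were tested and 3 were lower, namely vis, mia and twe, and 4 without female 3. The lowest adjusted p was that of mia, a gene of the spermatocyte transcription programme, with 75, 85 and 78 counts in males and 43, 46 and 28 in females (log2 fold -1.07 ± 0.18, edgeR adjusted p = 0.0070). The calls of vis and twe were lost without several single libraries (adjusted p up to 0.0877 and 0.115). Of 23 genes of yolk, eggshell and ovary, 5 were tested. The only call among them was Yp3, a yolk protein gene of adult females, which was lower in female larvae with 9, 7 and 10 counts against 30, 30 and 27 in males (log2 fold -1.76 ± 0.26, edgeR adjusted p = 0.0043).

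Among lists with more than 1 tested gene, chosen with earlier results of these data known, heat shock had the largest median fall. Of 15 tested genes 12 were lower in females and none higher, with a median log2 fold of -2.91, and the same count of 12 came back under each other scaling and without any library except female 3, where it was 13. These genes encode chaperones that bind unfolded proteins, and several are also made at set times of normal development. For Hsp26 (FBgn0001225, dm6 chr3L:9376418-9377427, minus strand), a small heat shock protein, the males had 5198, 5658 and 4515 counts and the females 268, 334 and 344. That is 16.5-fold, a log2 fold of -4.04 ± 0.21 (edgeR adjusted p = 0.00019). For Hsp27, its neighbour on 3L, the males had 2690, 2700 and 2580 counts and the females 176, 172 and 157, a log2 fold of -4.01 ± 0.13 (edgeR adjusted p = 3.3e-05). Scaled to the library size, the females stood at 13.8, 17.4 and 21.7 CPM for Hsp26 and at 9.05, 8.95 and 9.91 CPM for Hsp27, so that female 3 was the highest in Hsp26. All males lay far above, at 258 CPM or more for Hsp26 and 147 or more for Hsp27.

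The abundant chaperone gene Hsp83, the fly Hsp90, had 37241, 35931 and 36200 counts in males and 5337, 5489 and 4137 in females. This was 7.54-fold lower in females at a log2 fold of -2.91 ± 0.14 (edgeR adjusted p = 0.00011). For Hsp68 the males had 3167, 2950 and 3233 counts and the females 286, 278 and 255, a log2 fold of -3.55 ± 0.13 (edgeR adjusted p = 4.1e-05). For DnaJ-1, a co-chaperone of Hsp70, the males had 2982, 2794 and 3001 counts and the females 859, 760 and 415, a log2 fold of -2.17 ± 0.21 (edgeR adjusted p = 0.0010). Female 3 was the lowest of all here, at 26.2 CPM against 44.2 and 39.5 in females 1 and 2. The 4 tested copies of Hsp70 had log2 folds of -3.60 (Hsp70Aa), -3.61 (Hsp70Bc), -4.44 (Hsp70Ba) and -4.77 (Hsp70Ab), but they are near-identical, so that reads can be split between them and single values are uncertain. Hsp23 (-2.63), stv (-1.31) and Hsp67Ba (-1.37) were also lower, the last with 75.9% of its exons under a gene of the opposite strand. The genes that did not pass were Hsf, which encodes the transcription factor of the response, at 0.06 ± 0.14, Hsp67Bc at 0.05 ± 0.19 and the noncoding Hsromega at -0.22 ± 0.12 (edgeR adjusted p = 0.83, 0.88 and 0.24). In roX-KO males the counts were 942, 898 and 962 for Hsp26 and 14053, 14308 and 14566 for Hsp83, between the females and the wild-type males.

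**Figure D2:**
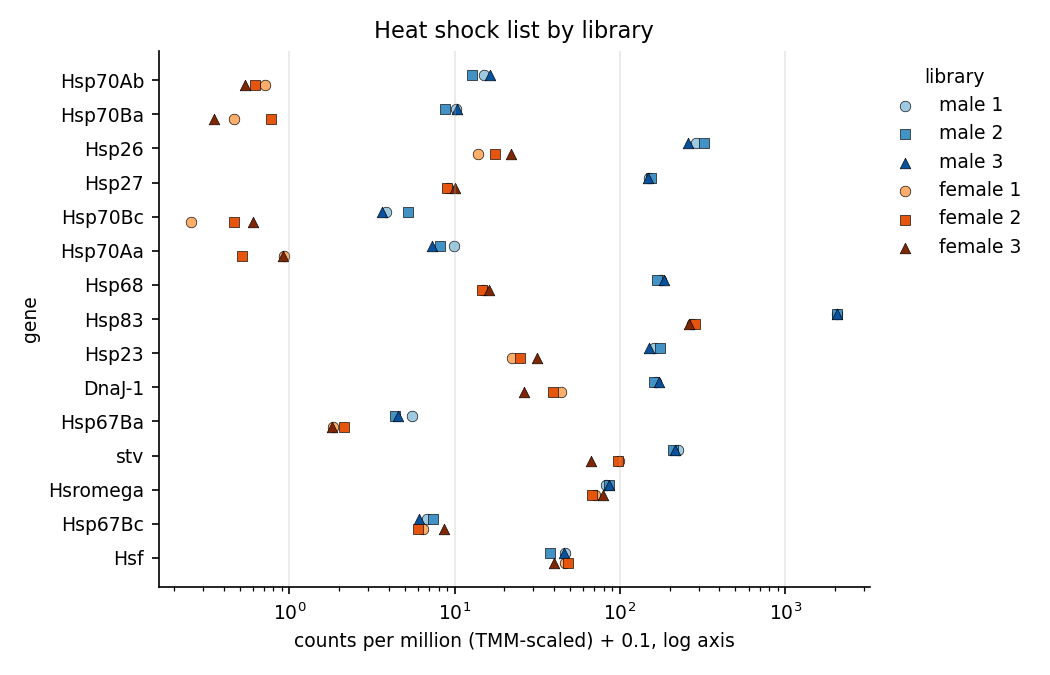
Each row is a tested heat shock gene and each point a library at its TMM-scaled CPM plus 0.1 on a log axis. In the upper 12 rows all 3 females lie left of all 3 males, while in the lowest 3 rows, Hsromega, Hsp67Bc and Hsf, the sexes lie close together.

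Genes of DNA replication and mitosis were lower in females as a group, by smaller amounts. Of 58 tested genes 31 were lower and 2 higher, with a median log2 fold of -0.69. Without female 3, 43 were lower, and without one of the other libraries 15 to 23. For polo, a mitotic kinase, the males had 265, 233 and 273 counts and the females 98, 99 and 53, a log2 fold of -1.68 ± 0.20 (edgeR adjusted p = 0.0020). For CycB, the cyclin of mitotic entry, the males had 114, 102 and 120 counts and the females 41, 44 and 24, a log2 fold of -1.67 ± 0.20 (edgeR adjusted p = 0.0019). For pav, a kinesin of cytokinesis, the log2 fold was -1.61 ± 0.16 (edgeR adjusted p = 0.00099). The groups were separate in all 3.

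Genes of replication were lower as well. Mcm3 and Mcm5, subunits of the replicative helicase, had log2 folds of -1.02 ± 0.12 and -0.85 ± 0.13 (edgeR adjusted p = 0.0020 and 0.0047), and RnrS, a subunit of ribonucleotide reductase, one of -0.83 ± 0.12 (edgeR adjusted p = 0.0046). For PCNA, the sliding clamp of replication, the males had 781, 848 and 735 counts and the females 407, 427 and 512, a log2 fold of -0.83 ± 0.19 (edgeR adjusted p = 0.024, up to 0.0926 without any one library but female 3). The 2 genes higher in females were Cdk2 and sub. For Cdk2, a kinase of entry into S phase, the males had 418, 519 and 455 counts and the females 1640, 1680 and 1887, a log2 fold of 1.88 ± 0.19 (edgeR adjusted p = 0.0011), but 43.9% of its exons lie under a gene of the opposite strand. For sub, a kinesin of the meiotic spindle, the log2 fold was 1.10 ± 0.21 (edgeR adjusted p = 0.011, up to 0.0628 without male 1 or 2), with 20.6% of its exons under an opposite gene.

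The largest rises of the whole comparison lay beside each other on the X, at the eye colour gene w and 5 uncharacterised genes to one side of it. For w (FBgn0003996, dm6 chrX:2790599-2796466, minus strand), a transporter of pigment precursors, the males had 6, 6 and 3 counts and the females 223, 237 and 212, a log2 fold of 5.42 ± 0.24 (edgeR adjusted p = 9.9e-05). The roX-KO males, with 1, 2 and 2 counts, were as low as the wild-type males. For CG14418 (FBgn0040354, dm6 chrX:2882226-2883661, minus strand), which starts 87.2 kb from the start of w, each male had 2 counts and the females had 2232, 2334 and 2139, a log2 fold of 10.01 ± 0.21 (edgeR adjusted p = 5.4e-06). For CG3588 (FBgn0025643, dm6 chrX:2919770-2924426, plus strand), 123 kb from w, the males had 65, 59 and 58 counts, the females 9931, 10276 and 11493 and the roX-KO males none (log2 fold 7.42 ± 0.22, edgeR adjusted p = 3.3e-05). Their neighbours CG14417 and CG14419 had log2 folds of 6.47 ± 0.42 and 6.02 ± 0.30, and CG14416 had 0, 1 and 1 counts in males and 57, 61 and 45 in females, a ratio of 79.3 (95% counting interval 21.6 to 660). Female 3 lay with females 1 and 2 in all 6. The labels do not give the allele of w in any group.

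A further run of genes just beyond CG3588 was also higher in females, though by less and with a different pattern in the roX-KO males. These genes were chosen after their values were seen. For CG14424, the first of them, the males had 785, 830 and 748 counts, the females 3240, 3536 and 3931, and the roX-KO males 1864, 1880 and 1875 (log2 fold 2.16 ± 0.18, edgeR adjusted p = 0.00064). For CG14421 the males had 2354, 2859 and 2162 counts, the females 14326, 15950 and 24312, and the roX-KO males 12681, 12702 and 12626 (log2 fold 2.89 ± 0.32, edgeR adjusted p = 0.0017). CG32793, CG3598, CG14420, CG14423 and CG17959 lay at log2 folds of 1.85, 1.96, 1.54, 1.54 and 2.94, the call of CG14420 being lost without male 1, 2 or 3 (adjusted p up to 0.0847). CG14422, inside this run, was not called at 0.56 ± 0.18 (edgeR adjusted p = 0.065). On the other side of w, its neighbour CG32795 had a log2 fold of 0.09 ± 0.12. Over 700 kb either way from w, 116 genes were tested, of which 26 were higher (22.4%) and 13 lower (11.2%), beside 13% and 10.3% on the whole X. From w to CG17959, 13 of 14 genes were higher. In the rest of the window 13 of 102 were higher (12.7%), close to the share on the X.

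**Figure D3:**
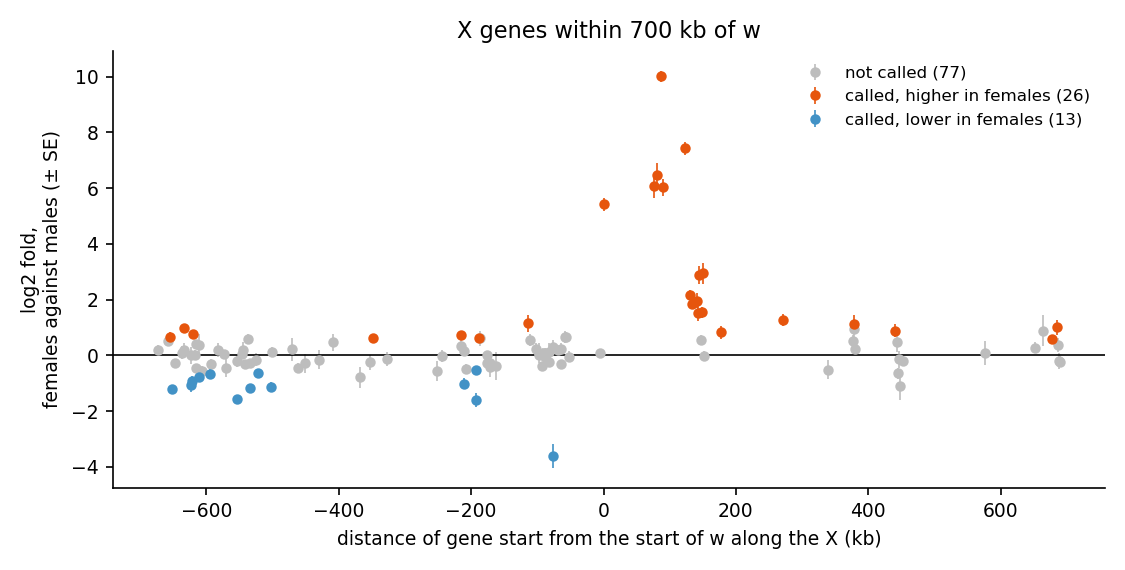
Each point is a tested X gene, placed by the distance of its transcription start from that of w (horizontal axis, kb) and by its log2 fold in females against males with its SE (vertical axis). Orange points are called higher and blue ones lower. The 6 highest points lie between 0 and 123 kb, followed by the run at about 1.5 to 2.9, and the rest of the window lies within a few log2 units of 0.

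The X as a whole was close to the autosomes. Of 1751 tested X genes 228 were higher (13%) and 180 lower (10.3%), and the median of their log2 folds was 0.09. Of 9218 genes on the large autosome arms (2L, 2R, 3L, 3R), 963 were higher (10.4%) and 1050 lower (11.4%), with a median of 0.03. The X shift, the median deviation of X genes minus that of the arms in each library on the log2 scale, was -0.02, -0.05 and -0.02 in the males and 0.09, 0.08 and -0.06 in the females. The difference was 0.07 in favour of females, or 4.68% (exact two-sided permutation p = 0.4, where 3 libraries against 3 cannot go below 0.1). Female 3 was below all males, and without it the difference was 0.12 (exact permutation p = 0.2, the smallest possible for 2 against 3).

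Female 3 differed from the others by gene length, as described last, and X genes have longer exons than those of the arms, with medians of 2271 and 1884 bases. Within genes of exonic length below the median of all genes, the X shift was -0.03, -0.03 and -0.05 in males and 0.04, 0.06 and 0.03 in females. Within longer genes it was -0.03, -0.04 and -0.02 in males and 0.06, 0.06 and -0.01 in females. The sexes did not overlap in either class, with differences of 0.08 and 0.07 (exact permutation p = 0.1 each, the smallest possible). The split by length was chosen after the data were seen, so that these p-values describe the split and are not a planned test. Without the 6 genes at w the overall difference was 0.06. Other large differences on the X were Agxt, an aminotransferase gene, at 936, 1033 and 886 counts in males and 6574, 6858 and 7420 in females (log2 fold 2.85 ± 0.17, edgeR adjusted p = 0.00024), and the protease gene Ser6 (2.59). CG34330 (-2.74) and Mybbp1A (-2.38) were lower.

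Chromosome 4 showed no shift beyond the spread between libraries. Its shift against the arms was 0.00, -0.16 and 0.12 in the males and 0.23, 0.13 and -0.33 in the females. The difference of 0.02 (exact permutation p = 0.9) changed sign without male 2, female 1 or female 2, to -0.05, -0.09 and -0.04, and was 0.19 without female 3. Of its 92 tested genes 5 were higher and 3 lower, and 28 (30.4%) and 8 (8.70%) without female 3, when the arms had 25% and 26.8%. On the Y only FDY and 1 other gene were tested, and the other was not called.

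The mitochondrial genome gave a smaller share of the counts in females. It held 9.70%, 10.1% and 12.3% of the counts in males and 6.56%, 5.70% and 8.06% in females. The groups did not overlap, and the difference was -3.94 percentage points (exact permutation p = 0.1, the smallest possible). Without the 2 ribosomal RNA genes of that genome the shares were 3.79%, 3.64% and 4.56% in males and 3.10%, 2.46% and 2.72% in females, again apart. Of 18 tested mitochondrial genes 6 were lower and none higher, and 15 were lower without female 3. The roX-KO males had shares of 6.48%, 8.45% and 6.46%, below all wild-type males. Without the 2 ribosomal RNA genes their shares were 3.47%, 3.98% and 3.26%, which overlapped those of the wild-type males.

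Genes of the fat body, the fly's store of lipid and source of blood proteins, were mostly lower in females. Of 16 tested genes 9 were lower and 2 higher, with a median log2 fold of -0.75. The count was 11 lower without female 3 and 3 to 7 without another library. For FASN1, the fatty acid synthase, the males had 16791, 12702 and 16451 counts and the females 4379, 4261 and 2059, a log2 fold of -2.17 ± 0.25 (edgeR adjusted p = 0.0020). The roX-KO males, with 21235, 20198 and 21566 counts, lay above both. For Lsd-1, which coats lipid droplets, the males had 2318, 2379 and 2377 counts and the females 764, 815 and 633, a log2 fold of -1.72 ± 0.11 (edgeR adjusted p = 0.00028). ACC, the enzyme before FASN1, had a log2 fold of -0.85 ± 0.27 and did not pass (edgeR adjusted p = 0.067). The 2 higher genes were the lipase gene bmm (0.62) and the glucosidase gene tobi (0.76), and neither call was firm. That of bmm was lost without any library but female 3 (adjusted p up to 0.0837) and that of tobi without male 3 (0.0662).

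Among 15 tested genes of insulin and nutrient response, 5 were higher and 2 lower, with a median of 0.15. Without female 3 the counts were 6 and 4, and without another library 1 to 2 and 0 to 2. Pepck2, an enzyme of gluconeogenesis, had 201, 240 and 195 counts in males and 514, 462 and 540 in females (log2 fold 1.23 ± 0.18, edgeR adjusted p = 0.0044). The insulin-like peptide gene Ilp5 had 32, 33 and 25 counts in males and 16, 12 and 13 in females (log2 fold -1.16 ± 0.23, edgeR adjusted p = 0.014, up to 0.0658 without male 1, male 2 or female 2). Of 13 glycolytic genes only Gpdh1 was called, at -0.84 ± 0.12 (edgeR adjusted p = 0.0043), with 22.1% of its exons under an opposite gene, and 4 were lower without female 3.

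More detoxification genes were higher in females than lower, and the share of lower ones was near that of all genes. Of 141 tested cytochromes P450, transferases and related genes 41 were higher (29.1%) and 19 lower (13.5%), with a median of 0.21. Among all genes tested the shares were 10.8% and 11.2%. Without female 3 the counts were 54 and 37, beside 26.1% each way of all genes, and without another library 18 to 27 and 5 to 10. For Cyp12c1 the males had 582, 604 and 545 counts and the females 2690, 2629 and 2422, a log2 fold of 2.13 ± 0.12 (edgeR adjusted p = 0.0002). For the sugar transferase gene Ugt37A1 the males had 5, 5 and 3 counts and the females 46, 52 and 24, a log2 fold of 3.14 ± 0.36 (edgeR adjusted p = 0.0018). Going the other way, Cyp6a8 had 1118, 1134 and 1134 counts in males and 356, 330 and 298 in females (log2 fold -1.82 ± 0.12, edgeR adjusted p = 0.00024).

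Immune genes were called in both directions. Of 34 tested genes 13 were higher (38.2%) and 8 lower (23.5%), beside 10.8% and 11.2% of all genes, with a median of 0.71. Without female 3 the counts were 16 and 12 and the median 0.38, and without another library 3 to 13 were higher and 4 to 5 lower. On the higher side, the Bomanin genes encode short peptides made under the Toll pathway. BomS3 had 418, 473 and 400 counts in males and 1011, 1062 and 1220 in females (log2 fold 1.33 ± 0.19, edgeR adjusted p = 0.0039). BomS6, BomBc2, BomS2 and BomS1 had log2 folds of 1.95, 1.82, 1.34 and 1.07, each losing its call without at least 1 male (adjusted p up to 0.128). PGRP-SC1b, an enzyme that cuts peptidoglycan, had 76, 86 and 82 counts in males and 394, 427 and 427 in females (log2 fold 2.33 ± 0.16, edgeR adjusted p = 0.00036), though its near copy PGRP-SC1a could share its reads.

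Among the lower genes were attacins and cecropins, antibacterial peptides made under the Imd pathway. AttB had 2035, 2494 and 1932 counts in males and 478, 515 and 744 in females (log2 fold -1.90 ± 0.28, edgeR adjusted p = 0.0046), and AttA, a near copy, had a fold of -1.75. CecB (-2.03) and CecC (-1.74) were lower with calls that rested on single libraries (adjusted p up to 0.0983). PGRP-LB, which dampens the Imd pathway, had a log2 fold of -0.85 ± 0.14 (edgeR adjusted p = 0.0061). DptA, another antibacterial peptide gene, was higher, with 23, 22 and 22 counts in males and 49, 50 and 41 in females (log2 fold 1.02 ± 0.17, edgeR adjusted p = 0.0067). Among larger rises outside the lists, the Toll ligand family gene spz6 had 287, 348 and 291 counts in males and 1409, 1526 and 1895 in females (log2 fold 2.37 ± 0.23, edgeR adjusted p = 0.0010).

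Genes of the cuticle, the chitin and protein coat that a larva renews at each moult, were called often and in both directions. Of 104 tested cuticle protein genes 24 were higher (23.1%) and 31 lower (29.8%), with a median of -0.34. The shares of all genes tested were 10.8% and 11.2%. Without female 3 the counts were 30 and 58, and without another library 10 to 23 and 17 to 21. Cpr47Ed had 38, 46 and 36 counts in males and 297, 305 and 287 in females (log2 fold 2.85 ± 0.17, edgeR adjusted p = 0.0002). TwdlS had 71, 85 and 72 counts in males and 242, 250 and 310 in females (log2 fold 1.80 ± 0.22, edgeR adjusted p = 0.0025). Lcp65Ae went the other way, with 1767, 2192 and 1839 counts in males and 315, 315 and 470 in females (log2 fold -2.40 ± 0.27, edgeR adjusted p = 0.0018).

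Of 23 genes of the pathway of ecdysone, the moulting hormone, 4 were higher and 1 lower, and 11 and 1 without female 3 (2 to 3 higher without another library). The ecdysone-induced gene ImpE2 had 981, 923 and 1037 counts in males and 2093, 2181 and 1772 in females (log2 fold 1.00 ± 0.12, edgeR adjusted p = 0.0017). Eip78C, a nuclear receptor gene, had a fold of 1.02 ± 0.17 (edgeR adjusted p = 0.0066) and Hr38, another, one of -1.20 ± 0.19 (edgeR adjusted p = 0.0060). The genes of hormone synthesis in the list, among them nvd, dib, sad and spok, were not called. Of 21 genes of chitin synthesis and matrix 2 were higher, Cht4 and Cht9. Both lost their calls without any one male or female 2 (adjusted p up to 0.172), and 76.9% of the exons of Cht9 lie under a gene of the opposite strand. Without female 3 there were 5 higher and 2 lower in this list.

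Of 52 digestive enzyme genes 9 were higher and 4 lower, with a median of 0.26. Without female 3 the counts became 12 and 15, beside 26.1% each way of all genes, and the median -0.07. Without another library 1 to 7 were higher and 1 to 3 lower. LManV, a lysosomal-type mannosidase gene, had 6339, 6010 and 6435 counts in males and 3354, 3373 and 3406 in females (log2 fold -0.92 ± 0.13, edgeR adjusted p = 0.0043). The trypsin gene alphaTry had 540, 679 and 495 counts in males and 1686, 1626 and 2577 in females (log2 fold 1.78 ± 0.30, edgeR adjusted p = 0.0074). Of 4 genes of the salivary gland none was called, and 1 was higher and 2 lower without female 3.

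Markers of other tissues gave few calls with all 6 libraries and more without female 3, when more of all genes were called as well (26.1% each way). Of 21 neuronal genes 1 was higher, the calcium channel gene cac, with a median log2 fold of 0.42, and without female 3 there were 15 higher and a median of 0.62. None was called when any one of the other libraries, male or female, was left out. For nSyb, a synaptic vesicle protein gene, the males had 1825, 1462 and 1949 counts and females 1 and 2 had 3067 and 2841, above all males, while female 3 had 1218, below them. The Hox genes, which set segment identity, followed the same pattern with none called of 8, and 6 higher without female 3. Of 21 Polycomb group genes 2 were lower, Caf1-55 and, with a call lost without male 1, male 2, female 1 or female 2 (adjusted p up to 0.104), esc, and without female 3 there were 7 higher and 2 lower, beside 26.1% each way of all genes. Their median was -0.01, and it turned to 0.06 with total counts and to 0.005 with TMM factors from the arms alone.

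Among 10 genes of glia 3 were higher, and 5 higher and 1 lower without female 3. Of them repo, the glial identity gene, had 106, 84 and 83 counts in males and 224, 190 and 117 in females (log2 fold 0.90 ± 0.21, edgeR adjusted p = 0.023). Among 13 genes of hemocytes, the blood cells, 2 were higher, NimC1 and PPO2, and 4 higher and 1 lower without female 3. The calls of repo and of both hemocyte genes were lost without any library but female 3 (adjusted p up to 0.11 for repo and 0.144 for PPO2). Of 7 genes of neural stem cells 2 were lower, mira and wor, the first losing its call without male 1 (adjusted p = 0.0501) and the other without any library but female 3 (up to 0.138), and 3 were lower without female 3. Of 24 muscle genes 1 was called, the actin gene Act79B, with 28, 18 and 29 counts in males and 101, 96 and 109 in females (log2 fold 2.0 ± 0.24, edgeR adjusted p = 0.0023). Without female 3 there were 3 higher and 7 lower, beside 26.1% each way of all genes. Of 70 nuclear genes of oxidative phosphorylation 1 was higher and 1 lower, with a median of 0.17, and without female 3 there were 2 and 15, with a median of -0.17. Of 88 cytosolic ribosomal protein genes none was higher, and the 6 lower ones were RpLP0-like and the paralogs named above. Their median of 0.51 became 0.09 without female 3.

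**Figure D4:**
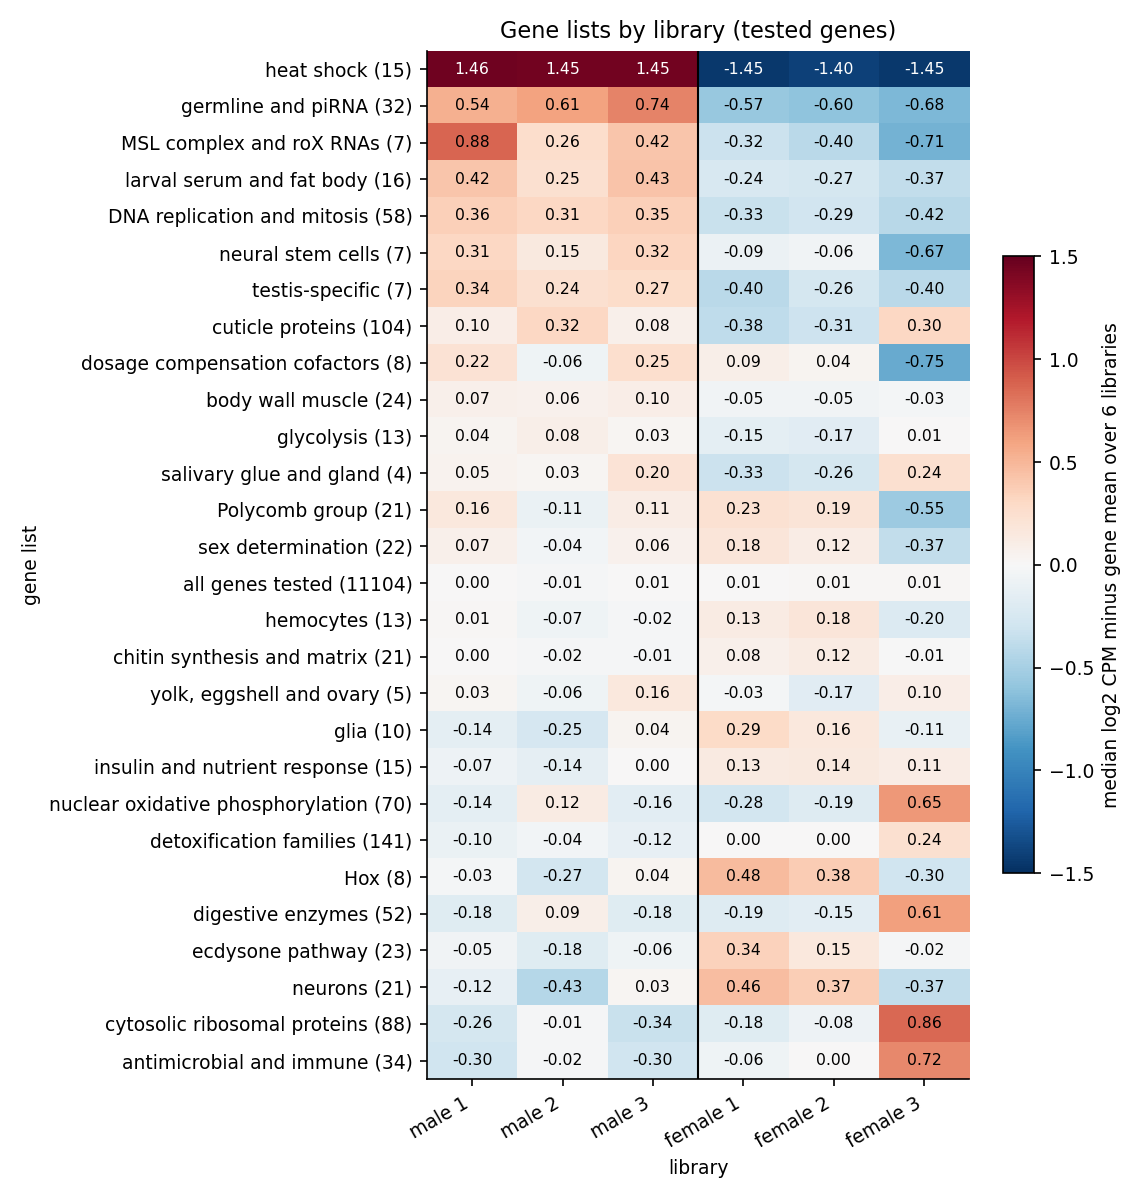
Each row is a gene list with its number of tested genes and each column a library, and each cell gives the median over the list of log2 CPM minus the gene's mean over the 6 libraries (red above, blue below). The heat shock and germline rows split by sex in all 6 columns, from 0.54 or more in each male to -0.57 or less in each female, while in the rows of ribosomal proteins, neurons and Hox genes female 3 has the opposite sign to females 1 and 2.

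Female 3 departed from females 1 and 2 by at least 2-fold in 592 genes above them (5.33%) and 862 genes below them (7.76%). Female 1 against female 2 gave 19 and 20 such genes, and male 2 against males 1 and 3 gave 20 and 52. The departure followed the exonic length of genes, with a Spearman correlation across 11084 genes of -0.71. In the shortest decile of genes, with a median of 564 bases, female 3 lay 0.50 above the mean of the 6 libraries on the log2 scale, against -0.25 and -0.20 for females 1 and 2. In the longest, with a median of 7557 bases, it lay at -0.59, against 0.30 and 0.24. Male 2 leaned the same way by less, from 0.12 in the shortest decile to -0.22 in the longest, and its departure from males 1 and 3 had a Pearson correlation of 0.70 with that of female 3 across 11104 genes. Genes within a library are not independent replicates, so that these correlations are descriptions.

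**Figure D5:**
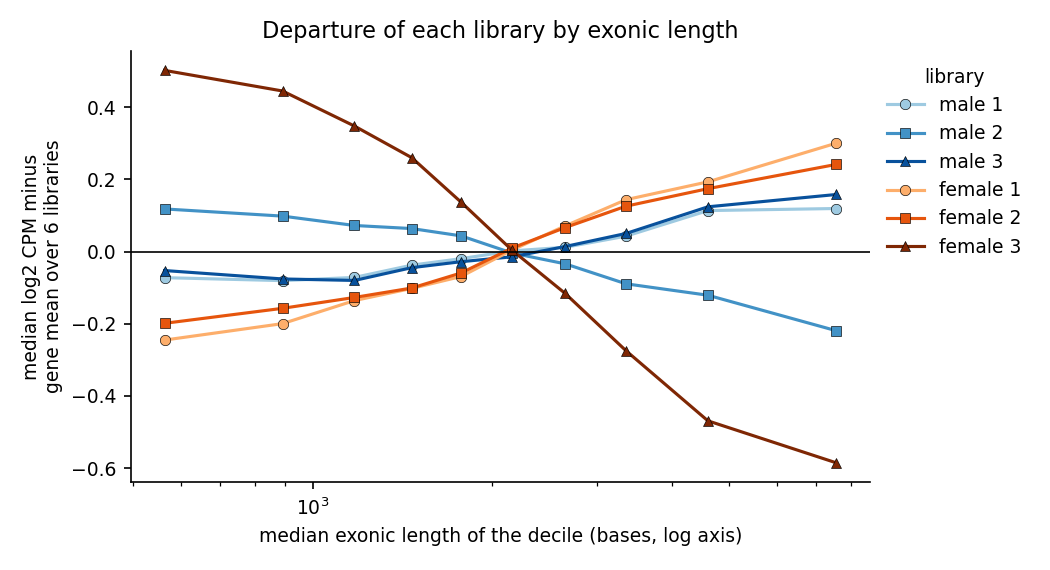
The horizontal axis gives the median exonic length of each decile of tested genes in bases (log axis), and the vertical axis the median over the decile of log2 CPM minus the gene's mean over the 6 libraries, 1 line per library. Female 3 falls from 0.50 to -0.59 and male 2 from 0.12 to -0.22, while the other 4 libraries rise.

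Gene groups followed their lengths in that departure. The cytosolic ribosomal proteins, with a median exonic length of 910 bases, were 0.98 higher in female 3 than in females 1 and 2 by the median log2 difference, and 42 of 88 were at least 2-fold higher. Nuclear oxidative phosphorylation genes were 0.87 higher. Neuronal genes, with a median length of 8473 bases, stood at -0.74, Hox genes at -0.88 and Polycomb group genes at -0.73. Immune genes stood at 0.79 and the MSL complex and roX RNAs at -0.31, while heat shock stood at 0.14, the germline at -0.21, DNA replication and mitosis at -0.12 and the fat body at -0.08. RNA quality and fragment size were not measured in these files, and their part in the departure was not tested.

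Single genes departed much further. Among genes with a mean log2 CPM of at least 3 on which females 1 and 2 were within 0.5 of each other, the splicing factor gene Sf3b3 had 1020 and 988 counts in females 1 and 2 and 93 in female 3, a log2 difference of -3.12. In male 2 it had 1148 counts against 1984 and 1835 in males 1 and 3. The antisense RNAs asRNA:CR44115 and asRNA:CR46092 had 26 and 19 counts in female 3, against 338 and 334, and 252 and 243, in females 1 and 2 (log2 differences -3.32 and -3.30). These genes overlap others, since 57.9% of the exons of Sf3b3 lie under another gene of the same strand and 73.7% and 83.5% of those of the antisense RNAs under a gene of the opposite one. Among the rises, fabp, a fatty acid binding protein gene, had 357 and 422 counts in females 1 and 2 and 982 in female 3 (log2 difference 1.62). Another gene of the same strand covers 72.1% of its exons. The mitochondrial ribosomal protein genes mRpL13 and mRpL40 had differences of 1.52 and 1.51, with 35.2% of the exons of mRpL13 under another gene of the same strand. None of these genes was called between the sexes with all 6 libraries. Without female 3, Sf3b3, fabp and mRpL13 were called lower in females, at log2 folds of -0.85, -0.81 and -0.79 (edgeR adjusted p = 0.0040, 0.0041 and 0.0015). The antisense RNAs and mRpL40 were not called in that fit either.

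With the trend of each library on exonic length taken out as an offset, an alternative chosen after seeing the data, the comparison of the sexes called 2367 genes higher and 2517 lower. Of the genes called first, 1180 of 1197 and 1226 of 1244 were among them. Heat shock genes kept a count of 12 lower, the germline list had 24 lower and DNA replication and mitosis 41 lower, while neurons had 11 higher and ribosomal proteins 34 higher and 6 lower.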

How the data were processed

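The authors deposited raw read counts per gene for each library, 1 file of 17611 gene IDs with closing lines for reads outside genes, which were left out. Per the labels' protocols, Trizol was used to extract larval RNA, which was freed of DNA, enriched for polyA on oligo dT beads and sequenced from both ends (100 bases each, DNBSEQ). The dm6 build and the programs HTSeq 2.0.2, HISAT2 2.2.1, DESeq2 and SAMtools 1.13 are named per the submitters' processing notes, and the strand setting is not given in the sources used here. A deposited FPKM table of the male libraries was not used. Symbols, dm6 positions and exonic lengths came from the Ensembl annotation, which matched 17556 IDs and left 55 unmatched. The reads outside genes came to 45.7% to 46.4% of each library.

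The 6 libraries were fitted alone. Genes were kept by filterByExpr (minimum count 10, minimum total 15), given TMM factors and tested by the robust quasi-likelihood F-test of edgeR, with Benjamini-Hochberg adjustment over the 11104 genes tested (edgeR 4.0.16, limma 3.58.1, R 4.3.3; DESeq2 1.42.0 as an alternative; Python 3.11.15, SciPy 1.17.1). The test was checked on simulated counts. Log2 CPM used a prior count of 2. Libraries were grouped by title. Genes were named by a rule: the markers, all tested genes of the sex determination and MSL lists, the 8 largest folds each way with a name, the 4 largest each way in all and on the X, among called genes that did not overlap and whose mean log2 CPM reached 1, and up to 3 called genes each way per list. For female 3 the rule took the 8 largest departures each way. Other genes were chosen after their values were seen. The 28 gene lists lost 16 symbols without a match. Members and lists were chosen with earlier results of these data known. Alternatives were other scalings, no filter, all 9 libraries, DESeq2, a replicate block, no mitochondrial genes, each library left out and an offset for exonic length. No nucleotide or protein sequence was used here.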

Additional observations from a re-analysis of the deposited data

How the results depend on the processing

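The count of genes higher in females ranged from 430 to 2927 and of those lower from 616 to 2924 as single libraries were left out, with the high ends without female 3. With the trend on exonic length removed the counts were 2367 and 2517. Under DESeq2's size factors, total counts, TMM factors from the arms, no filter, all 9 libraries, no mitochondrial genes and DESeq2, they stayed between 1109 and 1755 higher and between 1107 and 1726 lower. A replicate block gave 482 and 615. Deviations of same-numbered females and males from their group means correlated at r of 0.42, -0.62 and -0.46. These values cannot decide whether the numbers pair the libraries, because female 3 and male 2 each stand apart in their group. With the replicate block, 42 of the 175 named genes lost their call.

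The chromosome 4 shift of 0.02 became -0.034 with genes of mean log2 CPM of at least 3 and -0.0047 with longer genes, and ranged from -0.090 to 0.19 as libraries were left out, being -0.053 without male 2 and -0.037 without female 2. Some genes of sex determination and the MSL complex that were not called changed sign as libraries were left out, while others, such as tra2 and msl-1, kept theirs. Among those that changed sign, log2 folds ranged from -0.33 to 0.16 for da, -0.016 to 0.39 for emc, -0.0018 to 0.26 for fl(2)d, -0.32 to 0.051 for fru, -0.23 to 0.17 for gro and -0.33 to 0.026 for Mettl14. They ranged from -0.18 to 0.24 for mub, -0.15 to 0.28 for nito, -0.0072 to 0.49 for snf, -0.13 to 0.12 for vir, -0.047 to 0.21 for mle and -0.094 to 0.055 for msl-3. The replicate block gave -0.0038 for nito, total counts gave 0.028 for vir and 0.026 for msl-3, and the removed length trend gave 0.010 for vir. The cause was not tested. With 3 libraries a group, 1 of which stands apart, genes of modest fold or low count can miss the test without being equal between the sexes.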
